A study of Mus musculus with 12 samples.

Results

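Glutathione, thioredoxin and antioxidant enzymes were followed through 4 stages of mouse sperm formation. The genes were taken by symbol: the glutathione S-transferases (Gst), glutathione peroxidases (Gpx), peroxiredoxins (Prdx), superoxide dismutases (Sod) and catalase (Cat). The enzymes that make and recycle glutathione (Gclc, Gclm, Gss, Gsr), the glutaredoxins (Glrx) and every gene whose symbol starts with Txn completed the list. On the arrays they were read by 105 probe sets out of 29131 that carry 1 gene symbol in the platform annotation, and these stand for 61 of 15964 genes. A further 5 probe sets carry such a symbol beside another and were not used.

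The 4 stages were spermatogonia of type A and of type B, spermatocytes at pachytene and round spermatids, each isolated from the mouse, and their total RNA was labelled with the one-cycle protocol of Affymetrix. Each of these RNAs was hybridised to the 3 Affymetrix designs U74Av2, U74Bv2 and U74Cv2, which hold different probe sets. The labels call every array a singlet, which makes 12 arrays with 1 array per cell type and design. The groups therefore have no replicate error and no difference below carries a p-value; precision is limited by the small number of arrays. Strain, genotype, age and method of isolation are not given in the sources used here, and no treatment is named for any group. Type A spermatogonia are the mitotic germ cells that include the stem cells, type B spermatogonia are the last mitotic cells before meiosis, pachytene spermatocytes are in meiotic prophase, and round spermatids are haploid.

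Glutathione is the main small thiol of the cell. Glutamate-cysteine ligase and glutathione synthetase make it, glutathione reductase restores it with NADPH, and the transferases and peroxidases spend it on reactive compounds and peroxides. Thioredoxins and glutaredoxins reduce disulphides in proteins, superoxide dismutases turn superoxide into hydrogen peroxide, and catalase and the peroxiredoxins remove that peroxide. In the testis this chemistry also builds structure: GPX4 protein is oxidised into the capsule around sperm mitochondria, and several thioredoxin family proteins are known mainly from spermatids and the sperm tail.

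A signal is the brightness of a probe set in units, with the arrays of a design scaled to a common trimmed mean. A floor between 50.01 and 50.03 units was set, since negative controls of bacterial and yeast sequence exceeded it in only 22 of 228 readings, with a highest reading of 103.5. Where the lower signal of a ratio sits at the floor, the ratio is written as "at least". Levels of different genes were not set against each other, because probes bind with different strength. A difference under 2-fold between single arrays was taken as not apart. Of the 61 genes, 59 exceeded the floor in at least 1 cell type and 41 did so in all 4. The epididymal peroxidase gene Gpx5 and the alpha class transferase gene Gsta1 did not exceed it in any. Of the 105 probe sets, 86 exceeded the floor in at least 1 cell type and 19 did not.

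**Figure D1:**
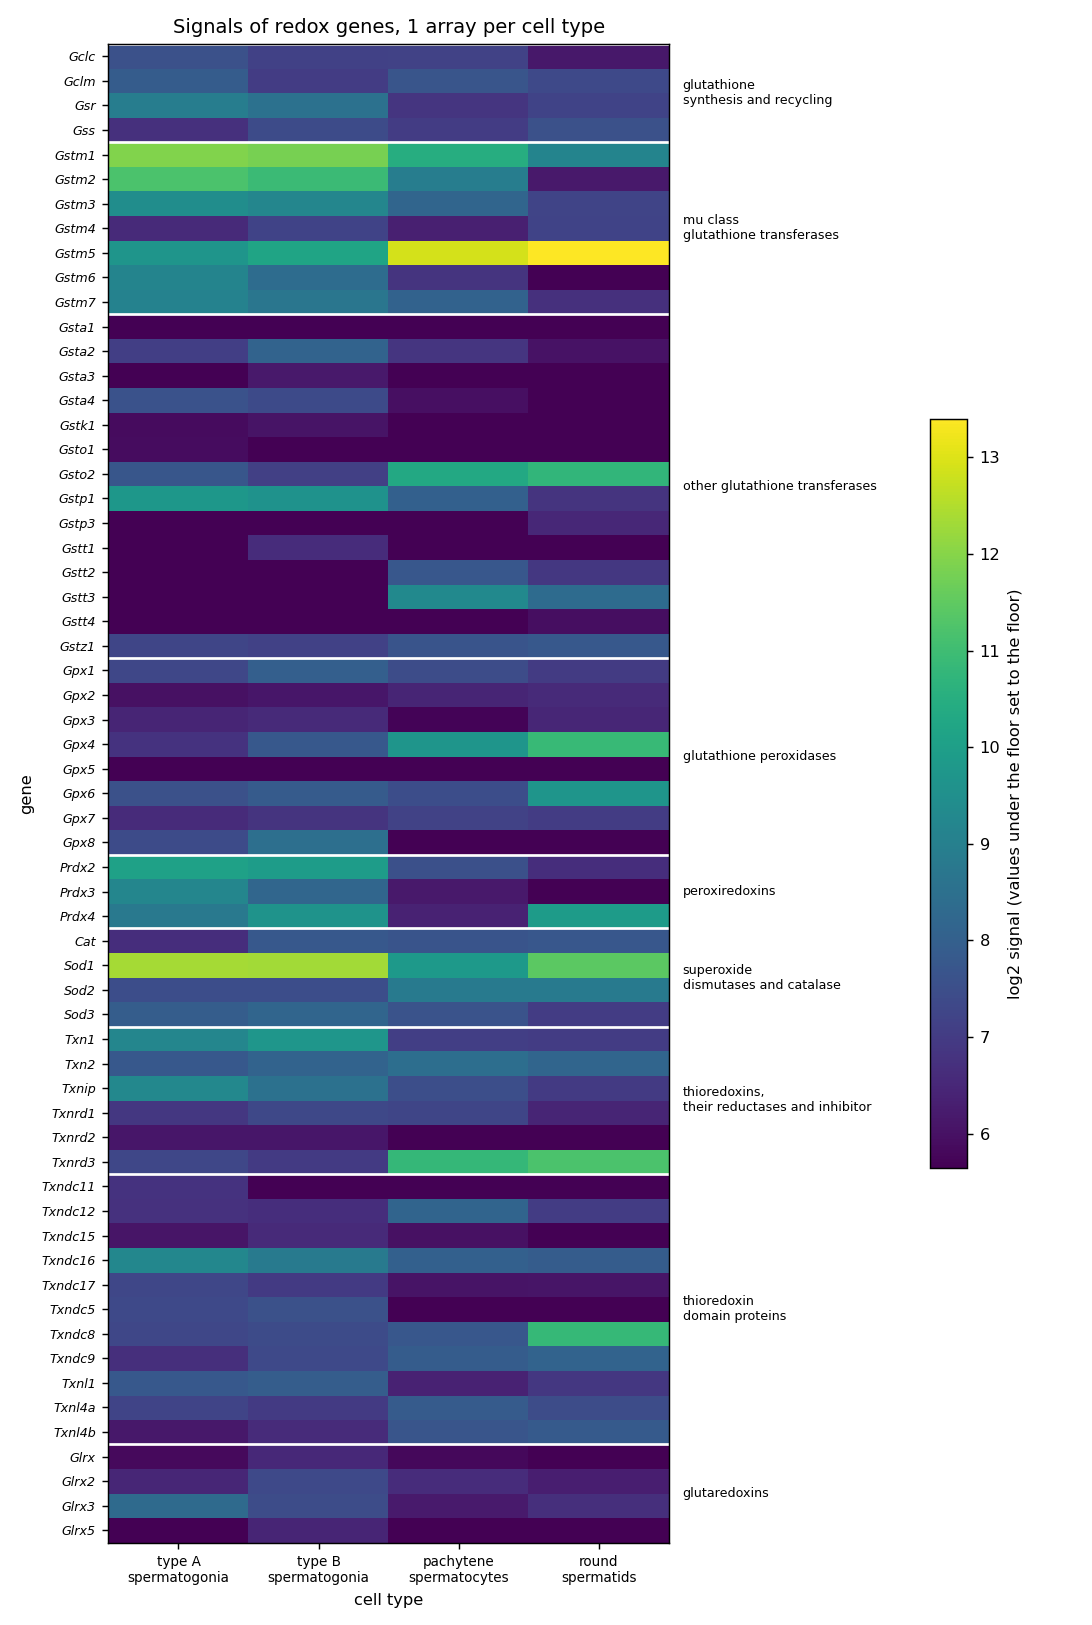
Signal of each of the 61 genes (rows, grouped by role) in the 4 cell types (columns), as log2 signal with values under the floor set to the floor; each cell is 1 array. Colours compare cell types within a row; Gstm5, Gsto2 and Txnrd3 brighten and Prdx4, Sod1 and Txn1 darken from type B spermatogonia to pachytene spermatocytes.

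Type A and type B spermatogonia had similar signals for these genes. Of 56 measured genes, 4 reached 2-fold above type A in type B cells (7.14%, beside 3.92 percent of all named genes) and 2 reached 2-fold below it (3.57%, beside 3.94 percent of all). The higher genes were Gpx4, Gpx8, Gsta2 and Cat, with ratios between 2.013 and 2.142, and the lower ones were Prdx3 and Txndc11. Their median log2 ratio was 0.11, and that of all named genes was 0.01. These counts moved with the scaling: 5 higher and 1 lower with quantile normalisation, 1 and 3 with common median scaling, and 0 and 17 with spike-in scaling. Spike-in controls read 1.757-fold higher in type B than in type A, so spike-in scaling set the median of all genes to -0.76.

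More genes differed between type B spermatogonia and pachytene spermatocytes. Of 55 measured genes, 9 stood 2-fold or more above type B in pachytene cells (16.4%, beside 17.1 percent of all named genes) and 18 stood 2-fold or more below it (32.7%, beside 23.2 percent of all). The higher genes were Gstm5, Gsto2, Gstt2, Gstt3, Gpx4, Sod2, Txnrd3, Txndc12 and Txnl4b, of which the first 4 and Txnrd3 reached 4-fold. The lower genes included 4 mu class transferases, all 3 measured peroxiredoxins, Sod1, Txn1 and Gsr, and 4-fold was reached by Prdx2, Prdx3, Prdx4, Sod1, Txn1 and Gpx8. The median log2 ratio was -0.56, against -0.28 over all named genes. The split was 10 higher and 17 lower with quantile normalisation, 13 and 12 with common median scaling, and 16 and 8 with spike-in scaling. The median of all genes was 0.18 with median scaling and 0.35 with spike-ins, and the distance of the redox genes below it was between -0.28 and -0.34 in these 4 scalings. Median and spike-in scaling multiply whole arrays, which shifts redox genes and all genes nearly alike, so they could change this distance little. Over the other settings it ran from -0.55 on U74Av2 only to -0.21 without a floor.

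From pachytene spermatocytes to round spermatids, 5 of 50 measured genes stood 2-fold or more higher (10%, beside 10.5 percent of all named genes) and 7 stood 2-fold or more lower (14%, beside 13.7 percent of all). The higher genes were Gpx4, Gpx6, Prdx4, Sod1 and Txndc8, and the lower ones were Gclc, Gstm1, Gstm2, Gstm6, Gstm7, Gstp1 and Txndc12. With quantile normalisation the counts were 5 and 4, and with spike-in scaling 5 and 13. The median log2 ratio was -0.14, against -0.06 over all named genes. At this step, as at the first, the shares of the redox genes lay near those of all genes.

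**Figure D2:**
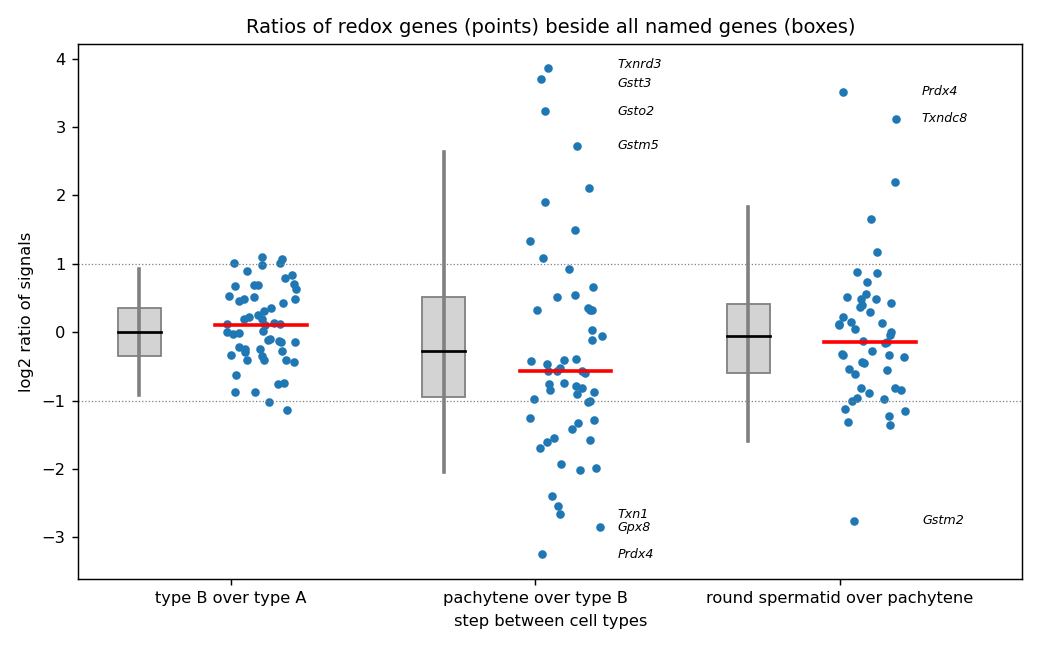
Log2 ratio of each measured redox gene (blue points, 1 gene each, red line at their median) at the 3 steps, beside all named genes (box from the lower to the upper quartile, black line at the median, grey line from the 5th to the 95th percentile). Dotted lines mark 2-fold, ratios against the floor are drawn at their bound, and genes beyond a log2 ratio of 2.6 are named. The points spread from Prdx4 at -3.25 to Txnrd3 at 3.86 between type B and pachytene cells, and stay near the dotted lines or inside them between type A and type B.

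Over the 4 cell types, 24 of the 59 genes over the floor differed by at least 4-fold from their lowest to their highest cell type (40.7%, beside 25.9 percent of all named genes). A single cell type 2-fold over all the others was less common. Type A spermatogonia were at least 2-fold over every other cell type for Prdx3 and Txndc11, 2 of the 59 genes (3.39%, beside 1.75 percent of all). Type B spermatogonia were so for Gpx8 and Gsta2, again 2 genes (3.39%, beside 1.38 percent of all). Pachytene spermatocytes were so for 1 gene, Txndc12 (1.69%, beside 3.72 percent of all), and round spermatids for 3, Gpx4, Gpx6 and Txndc8 (5.08%, beside 5.81 percent of all). Another probe set of Txndc11 exceeded the floor only in pachytene cells.

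Marker genes bear on what the preparations held. The summed signal of 6 spermatogonial markers was 4179 in type A and 3228 in type B spermatogonia, 514.9 in pachytene cells and 1183 in round spermatids. The 5 meiotic markers summed to 935.6 and 819.8 in the spermatogonia, 21572 in pachytene cells and 25108 in round spermatids. Sycp3, Ldhc and Pgk2 were under the floor in spermatogonia and over it in pachytene cells, whereas Sycp1 read 367.5, 319, 220 and 454. The pachytene signal of Sycp3, 60.4, was weaker than the strongest negative control on that array, 61.2. The 9 spermatid markers summed to 46798 in round spermatids and 3365 in pachytene cells. Summed markers of fibroblasts, myoid cells, Sertoli cells, macrophages and endothelium were higher in type B than in pachytene cells. Those of Leydig cells differed little in sum, but Cyp11a1 was 2.01-fold higher and Hsd3b1 at least 2.83-fold lower in pachytene cells. Of the 55 measured redox genes, 18 were lower in pachytene cells than in type B by 2-fold or more (32.7%, beside 23.2 percent of all named genes). The 7 fibroblast markers summed to 4847 in type A, 11454 in type B, 196 in pachytene cells and 501 in round spermatids, with Col1a1, Col1a2, Col3a1, Bgn and Lum at the floor in both later cell types. The 5 peritubular myoid markers summed to 2460.0, 3615, 475 and 345 in the same order. Sertoli markers summed to 6685, 4864, 3069 and 1203, with 10, 10, 9 and 5 of 11 over the floor and Amh at the floor throughout. Macrophage markers summed to 471.6, 824.6, 174.3 and 267.6, and Leydig markers to 444.5, 826, 769.7 and 209.3. The endothelial sums were 253.9, 352.1, 101.7 and 125.1, and the haemoglobin gene Hba-a1 read 309, 866, 102 and 93.2. Alas2, the other erythroid marker on the arrays, read 42.1, 11.2, 59.1 and 23.3, over the floor only in pachytene cells. The part of these cells in the redox ratios was not tested. In such bulk RNA, fewer cells of a type and less RNA per cell cannot be told apart.

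The mu class transferases went in opposite directions within a gene cluster. Their 7 genes lie side by side on chromosome 3, in the order Gstm5, Gstm7, Gstm6, Gstm3, Gstm2, Gstm1, Gstm4 in the RefSeq annotation of GRCm38.p6. Gstm5 is on the plus strand and the other 6 are on the minus strand. Gstm5, known as the mu class enzyme of brain and testis, was higher in the meiotic and haploid cells, and Gstm1, Gstm2, Gstm3 and Gstm6 were lower in pachytene cells. Gstm7 reached a 2-fold step only in round spermatids, where it was lower. The 250 bases before the first listed start of Gstm5, Gstm2 and Gstm1 are printed so that a mu class gene higher in later cells can be set beside a pair lower there. Gsto2 and Sod1 are added as further examples of a gene higher and a gene lower in pachytene cells. The windows are chr3:107895604-107895853 on the plus strand for Gstm5, chr3:107986421-107986670 on the minus strand for Gstm2 and chr3:108017974-108018223 on the minus strand for Gstm1. They are chr19:47865295-47865544 for Gsto2 and chr16:90220512-90220761 for Sod1, both on the plus strand. All are RefSeq sequences of GRCm38.p6, written 5′ to 3′ along the gene.
Gstm5: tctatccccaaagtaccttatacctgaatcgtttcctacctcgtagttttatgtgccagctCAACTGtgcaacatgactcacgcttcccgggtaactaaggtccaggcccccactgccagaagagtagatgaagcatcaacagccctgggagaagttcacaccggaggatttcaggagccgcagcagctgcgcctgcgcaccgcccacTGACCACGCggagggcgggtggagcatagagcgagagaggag
Gstm2: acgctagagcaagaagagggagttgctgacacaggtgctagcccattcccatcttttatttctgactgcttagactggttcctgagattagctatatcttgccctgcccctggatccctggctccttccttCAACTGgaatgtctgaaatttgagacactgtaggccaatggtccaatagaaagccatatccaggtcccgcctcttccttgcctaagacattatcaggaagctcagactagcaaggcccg
Gstm1: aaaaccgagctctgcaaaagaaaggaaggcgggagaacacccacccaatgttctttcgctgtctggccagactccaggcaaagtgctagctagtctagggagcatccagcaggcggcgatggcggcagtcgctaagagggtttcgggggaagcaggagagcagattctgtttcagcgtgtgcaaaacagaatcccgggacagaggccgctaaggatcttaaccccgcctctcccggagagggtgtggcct
Gsto2: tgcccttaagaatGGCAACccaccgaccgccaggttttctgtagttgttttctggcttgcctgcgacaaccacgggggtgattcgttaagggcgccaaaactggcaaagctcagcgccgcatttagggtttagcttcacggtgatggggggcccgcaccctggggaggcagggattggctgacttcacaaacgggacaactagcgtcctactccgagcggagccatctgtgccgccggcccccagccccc
Sod1: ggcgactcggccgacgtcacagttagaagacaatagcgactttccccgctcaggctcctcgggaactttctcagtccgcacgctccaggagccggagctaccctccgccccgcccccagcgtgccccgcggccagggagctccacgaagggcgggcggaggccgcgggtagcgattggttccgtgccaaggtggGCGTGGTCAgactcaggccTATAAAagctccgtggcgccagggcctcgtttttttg
Capitals mark the letters of 5 motifs that were searched. In Gstm5, CAACTG, the core bound by MYB factors, starts 189 bases before the start site, and TGACNNNGC, the core of the antioxidant response element bound by NRF2, starts 42 bases before it. In Gstm2, CAACTG starts 119 bases before the start. In Gsto2, the reverse complement of GTTGCC, a short form of the X-box of RFX factors, starts 237 bases before it. In Sod1, the reverse complement of TGACNNNGC starts 56 bases and TATAAA 37 bases before it. None of these matches overlaps another, and the Gstm1 window held none of the 5.

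Such short motifs are common, and the redox genes held them about as often as other genes did. Windows were at hand for 54 of the 61 genes and for 27025 genes in all, and every motif but TATAAA was read on both strands. TGACNNNGC was found in 5 of the 54 (9.26%), namely Gclm, Gsta3, Gstm5, Sod1 and Txndc11, and in 10.1% of all windows. CAACTG was found in 7 (13%) and in 11.1% of all, and GTTGCC in 7 (13%) and in 10.5% of all. TGACGTCA, the cAMP response element, was found in Txnl4b only among the 54 (1.85%) and in 1.62% of all. TATAAA was found in 3, Gstm7, Sod1 and Txn1 (5.56%), and in 8.12% of all. A match is a description of the letters and not of binding.

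Gstm5 read 833 in type A spermatogonia, 1166.5 in type B, 7713 in pachytene cells and 10825 in round spermatids. The later 2 cell types stand well over the spermatogonia, by 6.61-fold from type B to pachytene cells, and are not apart from each other. The ending of this probe set's name marks probes that can match several members of a gene family. The probe set of Gstm5 without such an ending read 203, 179.6, 3955 and 7093, a ratio of 22.0-fold from type B to pachytene cells. A family probe set on U74Cv2 gave 15.2-fold, and the 2 others over the floor in pachytene cells gave at least 2.32-fold and at least 3.17-fold. All 5 were higher in pachytene cells; 2 more stayed under the floor throughout.

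Gstm2 had a range of 32.9-fold over the cell types. It read 2380.3, 1949.6, 491 and 72.4 along the 4 cell types, 3.97-fold lower in pachytene cells than in type B and 6.78-fold lower again in round spermatids. Its other probe sets do not share this course: 1 on U74Cv2 read 147, 58.7, 162 and 171, and 1 on U74Av2 read 101, 178, 111 and 186. The mean over the 3 probe sets left log2 ratios of -0.40 and -0.65 at these steps.

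Gstm1, a major mu class enzyme of liver, read 3900.2, 3560.5, 1413 and 572, 2.52-fold lower in pachytene cells and 2.47-fold lower again in round spermatids. Its probe set also carries the family ending. Of 4 other probe sets of Gstm1, 1 on U74Cv2 exceeded the floor only in type A, at 55.8, and another there followed the same order with 1658, 1488, 537.5 and 384. Another read 603, 1323, 204 and 409, lowest in pachytene cells and higher again in round spermatids, and the last stayed between 103 and 165. With the mean over probe sets the log2 ratio from pachytene cells to round spermatids was -0.19. With common median scaling the log2 ratio from type B to pachytene cells was -0.81, and with spike-in scaling -0.56.

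Gstm6 read 568, 338, 111 and 7.6. It was 3.04-fold lower in pachytene cells than in type B and at least 2.23-fold lower again in round spermatids, where it was under the floor. The first of these had a log2 ratio of -0.83 with spike-in scaling. Its second probe set read 379, 200.3, 51.3 and 5.2, the same order, so both place Gstm6 highest in type A and under the floor in round spermatids. Gstm3 read 695, 586, 292 and 149.5, with 2.01-fold and 1.95-fold at the last 2 steps. With common median scaling the log2 ratio of Gstm3 from type B to pachytene cells was -0.49, and its other probe set read 179, 146, 197 and 172. Gstm7 read 542.5, 409, 272 and 106, with 2.57-fold between pachytene cells and round spermatids. Gstm4 had no such course, with 94.5, 147, 80.5 and 148 and no step of 2-fold. The summed Sertoli markers went from 6685 in type A to 1203 in round spermatids. Clu held much of that sum, with 3237 in type A and 214 in round spermatids. Fshr, at 143.5 and 183, and Trf, at 92.1 and 113, were not lower there. A link between these markers and the mu class genes was not tested.

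**Figure D3:**
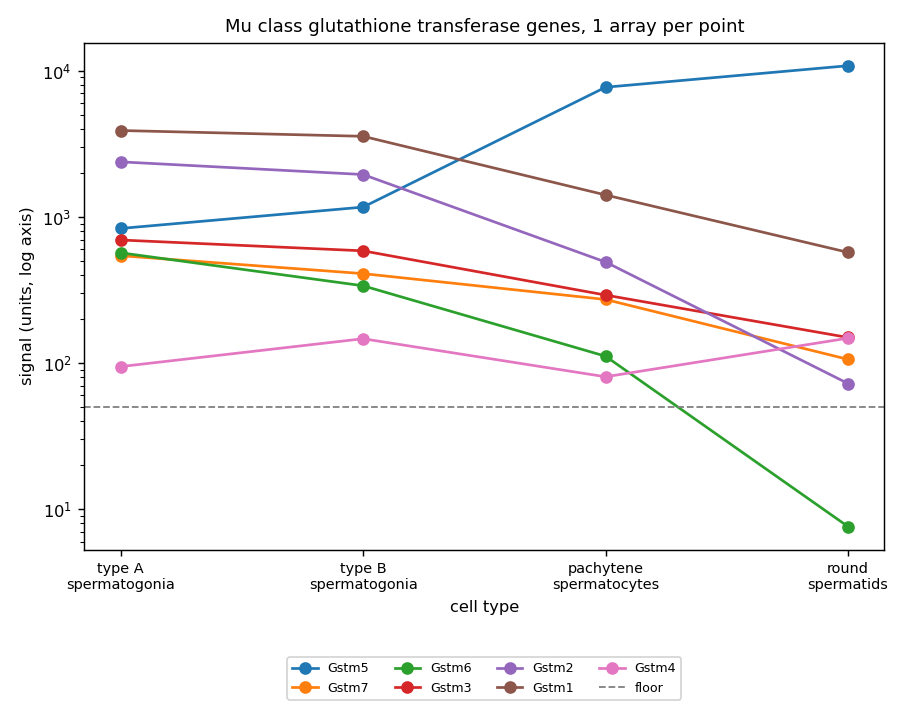
Signal (log axis, units) of the 7 mu class transferase genes in the 4 cell types, 1 array per point, listed in their order on chromosome 3, with the floor dashed. Gstm5 climbs from 833 to 10825, Gstm2 drops from 2380.3 to 72.4, Gstm6 ends under the floor at 7.6, and Gstm4 stays between 80.5 and 148.

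Among the other transferases, genes of 2 small classes were higher from pachytene onward. Gsto2, an omega class enzyme that reduces dehydroascorbate, read 212, 137.5, 1291 and 1736, 9.39-fold higher in pachytene cells than in type B. Its probe set has the family ending. Gsto1, the other omega gene, read 59.6 in type A and was under the floor in the other 3 cell types. Of the theta class, Gstt3 read 41.1, 24.2, 648.5 and 330.5, at least 13.0-fold higher in pachytene cells, and Gstt2 read 50.9, 35.2, 215.5 and 120, at least 4.31-fold higher. Both were lower in round spermatids than in pachytene cells by less than 2-fold. Their neighbours on chromosome 10, in the order Gstt3, Gstt1, Gstt4 and Gstt2, differed: Gstt1 exceeded the floor only in type B, at 98.9, and Gstt4 only in round spermatids, at 61.7.

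Gstp1, the pi class enzyme, read 862, 782, 263 and 113, so it was 2.97-fold lower in pachytene cells and 2.33-fold lower again in round spermatids. Gstp3 exceeded the floor only in round spermatids, at 90.7. The alpha class gene Gsta2 read 137, 276, 113.5 and 64.8, highest in type B. Gsta4, which acts on lipid peroxidation products, read 193, 166, 62.6 and 9.5, 2.65-fold lower in pachytene cells. With spike-in scaling the log2 ratio from type B to pachytene cells was -0.80 for Gstp1, -0.51 for Gsta2 and -0.63 for Gsta4. With quantile normalisation that of Gstp1 from pachytene cells to round spermatids was -0.97. Gsta3 exceeded the floor only in type B, at 71.7, and Gstk1, a mitochondrial and peroxisomal enzyme, only in the spermatogonia, at 58.3 and 67.0. Gstz1, an enzyme of tyrosine breakdown, read between 142.5 and 220 with no step of 2-fold.

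Glutathione synthesis showed little difference between cell types. Gclc, the catalytic subunit of glutamate-cysteine ligase, read 190.4, 141, 143 and 71.2, and only the last step reached 2-fold, at 2.01, which it missed in 4 alternatives, with a log2 ratio of -0.51 in the mean over probe sets. Its modifier subunit Gclm read 237, 129.8, 205 and 162, and the synthetase Gss 105.5, 171, 129.5 and 191, both without a 2-fold step. Glutathione reductase stood apart from them. Gsr read 493 and 370.5 in the spermatogonia and 114 and 147 in the later cells, 3.26-fold lower in pachytene cells than in type B. With spike-in scaling its log2 ratio was -0.93.

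Among the glutathione peroxidases, Gpx4 and Gpx6 were highest in round spermatids. Gpx4, which reduces lipid hydroperoxides in membranes and forms the sperm mitochondrial capsule, read 110, 221, 832 and 1869.5. Each cell type was over the one before it, by 2.01-fold, 3.76-fold and 2.25-fold, a range of 17.0-fold from type A to round spermatids. Only the middle step kept 2-fold in every alternative; the first had a log2 ratio of 0.19 and the last of 0.91 with spike-in scaling. Gpx6, a peroxidase known from the olfactory epithelium, read 191, 237, 180.1 and 825, and only its last step, 4.58-fold, exceeded 2-fold.

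Gpx8, a peroxidase of the endoplasmic reticulum, had the opposite course. It read 172, 360 and then 11.3 and 28.6, at least 7.20-fold lower in pachytene cells than in type B. Its lower signal, like those of Txndc11 in type B, Gstt3 in type B and Gstm6 in round spermatids, was weaker than the strongest negative control on that array, so these ratios are less firm. Gpx1, the cytosolic enzyme, read between 126 and 255, Gpx2, of the gut lining, between 64.3 and 94.98, Gpx3, the plasma enzyme, between 53.2 and 95.6 and Gpx7 between 97.2 and 144, without a 2-fold step. The other probe set of Gpx3 read 64.6, 101, 39.1 and 72.8, at least 2.02-fold lower in pachytene cells than in type B, and that of Gpx7 stayed under the floor.

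The 3 measured peroxiredoxin genes were all lower in pachytene cells. Prdx4, the enzyme of the secretory pathway, whose gene is on the X chromosome, read 444, 791, 82.9 and 949. It was low in pachytene cells alone, 9.54-fold under type B and 11.4-fold under round spermatids, and type B and round spermatids were not apart. Its probe set on U74Cv2 read 257, 361, 114 and 178, also lowest in pachytene cells, with 3.18-fold and 1.56-fold at these steps. Prdx3, the mitochondrial peroxiredoxin, read 593, 293, 72.9 and 41.6 and was lower at each step, by 2.02-fold, 4.02-fold and at least 1.46-fold. Prdx2, the cytosolic enzyme abundant in red cells, read 1085, 982, 187 and 101, 5.25-fold lower in pachytene cells. No other probe set of Prdx2 bears this out: 3 were under the floor in all cell types, and the fourth read 49.4, 42.9, 52.8 and 73.1.

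Superoxide dismutase genes went in opposite directions in pachytene cells. Sod1, the copper-zinc enzyme of the cytosol on chromosome 16, read 5191, 5185, 892 and 2791.5 on a probe set with the family ending. The spermatogonia were not apart, pachytene cells were 5.81-fold lower and round spermatids 3.13-fold higher again. A plain probe set on U74Av2 read 1280, 1309.7, 238 and 1154.5 and gave 5.51-fold and 4.86-fold at these steps, so both show the low point in pachytene cells. Another on U74Bv2 exceeded the floor only in type B, at 54.1. Sod2, the manganese enzyme of mitochondria, read 177, 179, 449 and 452, 2.51-fold higher in pachytene cells. Its probe set on U74Bv2, at 57.9 and 54.8 in the spermatogonia and under the floor later, does not share that course. Sod3, the extracellular enzyme, read 244, 290.0, 196 and 129, without a 2-fold step.

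Catalase gave no settled course. The probe set that stands for Cat read 102, 218.5, 201 and 216, 2.14-fold higher in type B than in type A, and carries the family ending. The plain one read 64.1, 62.6, 4.0 and 3.7, so that the spermatogonia were over the floor and the later cells under it.

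**Figure D4:**
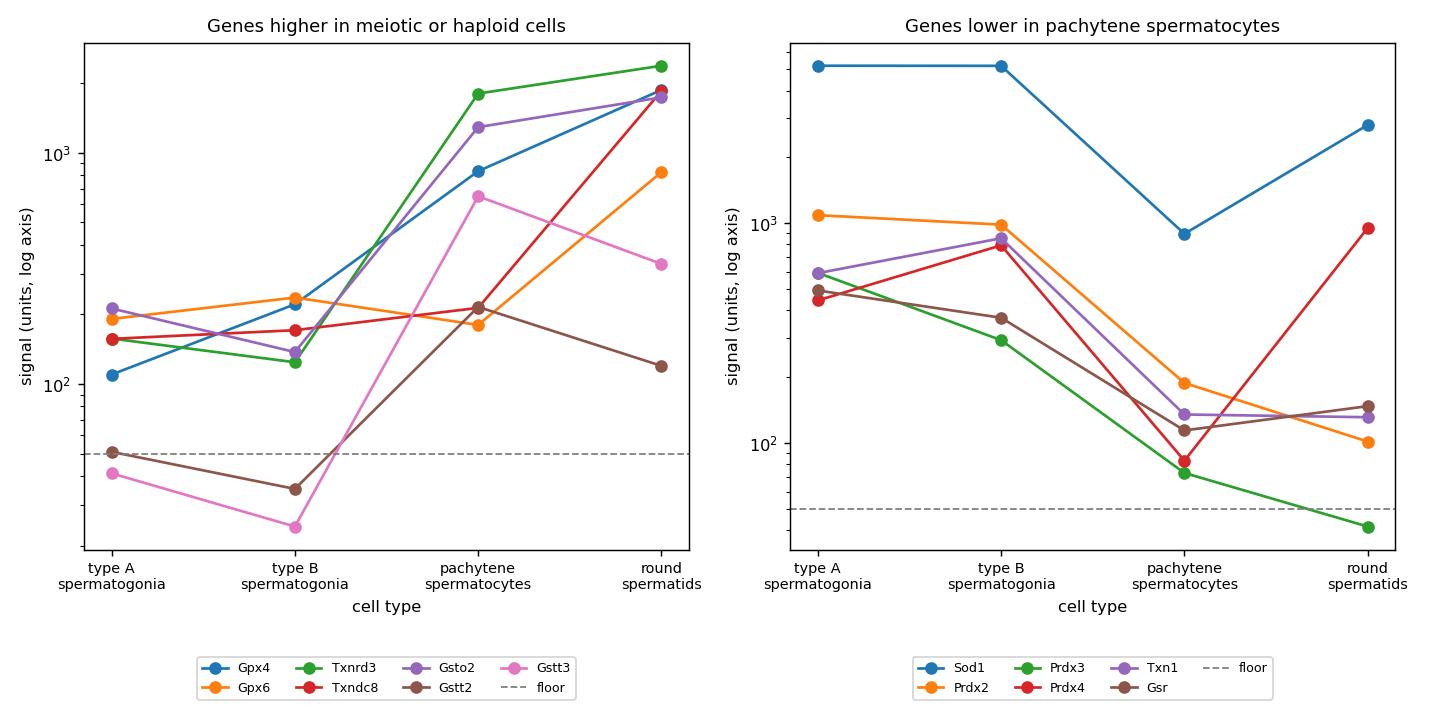
Signal (log axis, units) of 7 genes higher in meiotic or haploid cells (left) and 6 genes lower in pachytene spermatocytes (right), 1 array per point, with the floor dashed. On the left Txndc8 and Gpx6 stay at or below 237 until the round spermatid array, where they read 1851 and 825; on the right Prdx4 and Sod1 return to 949 and 2791.5 in round spermatids, while Txn1, Prdx2 and Prdx3 stay low.

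In the thioredoxin system the cytosolic thioredoxin and a reductase of germ cells went opposite ways. Txn1 read 591, 852, 134.5 and 131, 6.33-fold lower in pachytene cells than in type B, with both later cell types alike. Txnrd3, the thioredoxin-glutathione reductase known from testis, read 157, 124, 1803 and 2378.5 on U74Bv2, 14.5-fold higher in pachytene cells. A U74Av2 probe set of Txnrd3 disagrees, with 232, 418, 302 and 462, and the remaining one stayed under the floor. Txnrd1, the cytosolic reductase, read between 87.9 and 160.1, and the mitochondrial pair was quiet: Txn2 read between 219 and 347, and Txnrd2 exceeded the floor only in the spermatogonia, at 69.3 and 68.8. Txnip, the thioredoxin inhibitor, read 622, 372, 183 and 125, 2.03-fold lower in pachytene cells. Its log2 ratio was -0.50 with common median scaling, and a second probe set stayed between 58.4 and 81.4.

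Of the thioredoxin domain proteins, only Txndc8 was 2-fold or more higher in round spermatids than in pachytene cells. Txndc8, a thioredoxin of the spermatid Golgi and acrosome, read 157, 171, 213.5 and 1851, 8.67-fold higher in round spermatids than in pachytene cells. Txndc12, of the endoplasmic reticulum, read 109, 100.2, 284 and 131, high in pachytene cells alone by 2.84-fold over type B and 2.17-fold over round spermatids, the latter with a log2 ratio of -0.88 with quantile normalisation. Txnl4b, a splicing factor relative, read 71.2, 97.3, 207 and 230, 2.12-fold higher in pachytene cells. Txnl4a, a spliceosome subunit, read between 125 and 236 on U74Cv2, while its U74Av2 probe set read 192, 163, 24.2 and 15.1.

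Other proteins of this group were lower in the later cells. Txndc5, a disulphide isomerase of the endoplasmic reticulum, read 166, 190, 15.4 and 10.8, at least 3.80-fold lower in pachytene cells. Txnl1, which binds the proteasome, read 222, 244.5, 83.4 and 120, 2.93-fold lower in pachytene cells, although its log2 ratio was -0.78 with spike-in scaling. Txndc11, a partner of dual oxidases, exceeded the floor only in type A, at 109, on the probe set that stands for it. Of its other probe sets, 1 exceeded the floor only in pachytene cells, at 63.7, and 1 stayed under it. The mean over probe sets left a log2 ratio of -0.38 from type A to type B. Txndc16 read from 604 in type A down to 238 in round spermatids and Txndc17, a small cytosolic oxidoreductase, from 158 to 68.4, in steps under 2-fold. Txndc9, a cofactor of protein folding by the cytosolic chaperonin, read from 102 in type A up to 277 in round spermatids, also in steps under 2-fold. The other probe set of Txndc9 read 72.2, 109, 162 and 48.99, at least 3.24-fold lower in round spermatids than in pachytene cells. Txndc15 exceeded the floor in all cell types but round spermatids, with 94.2 in type B.

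Of the 4 glutaredoxin genes, Glrx3 alone had a measured step of 2-fold. Glrx3, an iron-sulphur cluster carrier, read 322, 175, 73.8 and 104, 2.38-fold lower in pachytene cells than in type B. That ratio was under 2-fold with a floor 2 times as high and with each of the other 3 scalings. Glrx, the cytosolic glutaredoxin, Glrx2, a mitochondrial one, and Glrx5 were highest in type B, at 93.5, 165 and 86.5, and Glrx and Glrx2 had no step of 2-fold. Glrx5, which serves iron-sulphur assembly in mitochondria, exceeded the floor in type B only, so its ratios to type A and to pachytene cells are bounds of at least 1.73-fold, and that type B signal was weaker than a negative control of 103.5.

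Different probe sets of a gene repeat its measurement on the same RNA. Among pairs of probe sets of a redox gene, 10 of 35 differed in their ratio by over 2-fold from type A to type B (28.6%, beside 17.9% of pairs over all named genes), 24 of 36 from type B to pachytene cells (66.7%, beside 35.3%) and 11 of 31 from pachytene cells to round spermatids (35.5%, beside 30% of all). Genes with many probe sets, such as Gstm5, give many of these pairs, and the pairs share RNA and often the array. Opposite ratios of at least 2-fold were found for 0, 1 and 1 pairs. Control probe sets present on all 3 designs gave log2 ratios whose SD between designs was 0.26, 0.23 and 0.44 at the 3 steps.

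**Figure D5:**
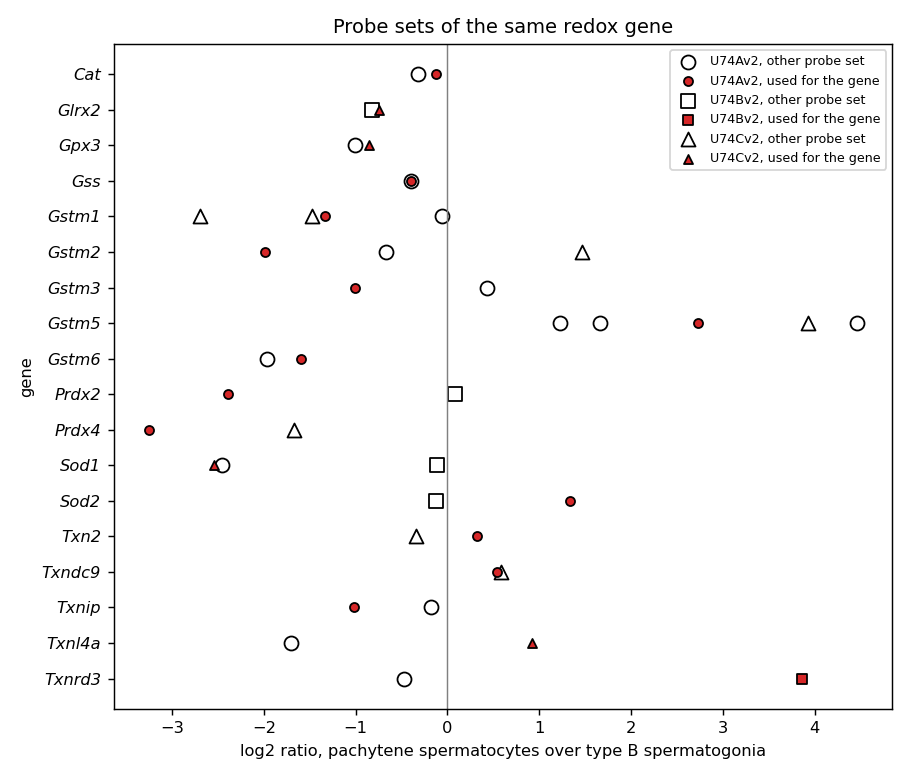
Log2 ratio of pachytene spermatocytes over type B spermatogonia for each probe set (marker shape gives the array design) of the 18 redox genes with more than 1 measured probe set; small red markers are the probe sets that stand for the gene. Ratios against the floor are drawn at their bound. Gstm2, Gstm3, Prdx2, Sod2, Txn2, Txnl4a and Txnrd3 have probe sets on both sides of 0, and those of the other 11 genes lie on a single side.

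Genes that work with these enzymes but fall outside the symbol rule were followed as a list of 98, of which 85 were on the arrays and 74 exceeded the floor. From type B to pachytene cells 9 of 69 measured genes stood 2-fold or more above and 21 below, with a median log2 ratio of -0.40. Over all named genes 17.1 percent stood above and 23.2 percent below at this step, with a median of -0.28. The counts of single groups given further on are for this step and are read beside these shares. From type A to type B 3 of 69 were higher and 2 lower, beside 3.92 and 3.94 percent of all named genes. From pachytene cells to round spermatids 5 of 63 were higher and 8 lower, beside 10.5 and 13.7 percent of all. In the NRF2 pathway, which switches on many antioxidant genes, 0 of 11 were higher and 5 lower in pachytene cells. The NRF2 gene Nfe2l2 read 560, 400, 105 and 138, 3.80-fold lower there, and its partner gene Maff 291, 817, 119 and 99.4. Of the NADPH suppliers 1 of 9 was higher and 5 were lower. Nnt, the mitochondrial transhydrogenase, read 109, 92.5, 463 and 267, and G6pd2, a retrogene of glucose-6-phosphate dehydrogenase, exceeded the floor only in round spermatids, at 332.5.

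Selenium is built into GPX4 and the thioredoxin reductases, and of 6 measured genes of selenoprotein synthesis 2 were higher in pachytene cells and 1 lower. Sephs2, which makes the selenium donor, read 112, 112, 931 and 828, 8.30-fold higher in pachytene cells. Of the membrane and other glutathione-dependent enzymes 2 of 9 were higher and 4 lower. Hagh, which frees glutathione in the glyoxalase pathway, read 78.5, 103, 904 and 1297, 8.81-fold higher in pachytene cells, and Mgst1, a microsomal transferase, 417, 345, 76.2 and 33.3, 4.53-fold lower. In the gamma-glutamyl cycle 0 of 8 were higher and 1 lower, Oplah, with 355, 250.1, 33.6 and 469. Of the other thiol oxidoreductases 3 of 20 were higher, among them the oxidase gene Ero1b with 143, 126, 1152 and 1217, and 4 were lower. The plain probe set of Ero1b gave a log2 ratio of 0.56. Of 6 metal-binding genes Mt1 was 2.23-fold higher, with a log2 ratio of 0.32 in the mean over probe sets. The ferritin gene Fth1 was 2.07-fold lower in pachytene cells, and on U74Av2 only its log2 ratio was -0.42. Its direction turned under common median and spike-in scaling, each of which chose the brightest of its 5 probe sets anew.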

How the data were processed

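Total RNA of 4 cell types was measured on 3 array designs. The deposited intensity values are linear signals per probe set that MAS5 produced, per the submitters' processing notes; version and settings are not given in the sources used here. Arrays of a design were scaled to the geometric mean of their 2% trimmed means, floored at 0.4 of it, and log2 was taken. Each gene was read from the probe set whose mean over the 4 cell types was highest, which put 41 redox genes on U74Av2, 10 on U74Bv2 and 10 on U74Cv2. Names come from the platform annotation, updated through Entrez identifiers to RefSeq (GRCm38.p6), which altered no redox symbol. Probe sets with 1 symbol numbered 29131, with several 724 and with none 6846. Every redox gene over the floor is named, with all 4 signals where the highest is at least 4 floors and 4-fold over the lowest. Related genes are named from up to 4 per role with the largest range. Gene members, related genes, markers and motifs were chosen with earlier results of these data known. Calculations used Python 3.11.15, numpy 2.4.6 and pandas 2.3.3 and were tested on simulated data. Alternatives were no floor, a higher floor, 3 other scalings, the mean over probe sets, plain probe set names, U74Av2 alone, updated symbols and a 4-fold threshold.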

Additional observations from a re-analysis of the deposited data

How the results depend on the processing

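With 1 array per cell type the number of arrays, the signal over the floor and the agreement of probe sets limit every ratio. From type A to type B the count of higher genes (4) was 7 without a floor, 1 with common median scaling, 0 with spike-in scaling and 0 at 4-fold. The count of lower genes (2) was 17 with spike-in scaling, 0 at 4-fold, and 1 with a floor of double height, quantile normalisation, the mean over probe sets, plain probe sets only or U74Av2 only; the median of 0.11 was -0.62 with spike-in scaling. From type B to pachytene cells the count of higher genes (9) was 16 with spike-in scaling, 5 on U74Av2 only and 5 at 4-fold. The count of lower genes (18) was 8 with spike-in scaling and 6 at 4-fold, and the median of -0.56 was -0.15 with common median and 0.02 with spike-in scaling. From pachytene cells to round spermatids the count of higher genes (5) was 8 without a floor, 3 on U74Av2 only and 3 at 4-fold. The count of lower genes (7) was 11 without a floor, 13 with spike-in scaling, 4 with quantile normalisation, 3 with the mean over probe sets and 1 at 4-fold. Directions turned for Cat in type B with plain probe sets (-0.03), and at pachytene for Prdx2 with plain probe sets (0.08) and Txnrd3 on U74Av2 only (-0.47). Fth1 turned at pachytene with common median (0.10) and spike-in scaling (0.36), and in round spermatids with common median scaling (0.21) and U74Av2 only (0.20). Each scaling chose the brightest probe set of a gene anew, so a scaled ratio of Fth1 may rest on another probe set than the main one. The alternative's own construction sets the counts at 4-fold, on fewer genes or from other probe sets; the cause of the others was not tested. Of the 45 redox ratios of at least 2-fold, 15 of 45 fell short of it with spike-in scaling, 12 of 45 with the mean over probe sets, 10 of 45 with common median scaling and 0 of 45 without a floor. The ratios of Gpx4, Gstm5, Gsto2, Gstt2, Gstt3, Txndc12 and Txnl4b above type B in pachytene cells kept 2-fold in every setting that measured them, 7 of 9. So did 5 of 18 below it, Gpx8, Prdx3, Prdx4, Sod1 and Txn1, and in round spermatids the higher Gpx6, Prdx4, Sod1 and Txndc8 and the lower Gstm7. From type A to type B only Prdx3 did. Of the genes that kept it, only Gstm5, Prdx4 and Sod1 have more than 1 probe set. For the others, the mean over probe sets, plain names and U74Av2 alone by construction left the ratio unchanged or did not measure it. No paired analysis was possible because each cell type has 1 array per design.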

Other observations

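Some partners of these enzymes had courses not described so far, all at 1 array per cell type and without a test. Selenok, a selenoprotein of the endoplasmic reticulum, read 378, 454, 124 and 421 along the 4 cell types, low in pachytene spermatocytes alone as Prdx4 and Sod1 were; the mean over its probe sets left a log2 ratio of 0.56 from pachytene cells to round spermatids. Clic4, a chloride channel protein of the glutathione transferase fold, read 682, 599, 1259 and 169, highest in pachytene cells, although its step from type B was under 2-fold with quantile normalisation. Adh5, which breaks down S-nitrosoglutathione, read 470, 476, 89.8 and 58.8. Slc3a2, a subunit of the cystine transporter, read 1246.0, 1141, 807 and 316. Me2, a mitochondrial malic enzyme, read 746.5, 547, 245 and 111, and Sqstm1, which carries the NRF2 inhibitor to autophagy, 556, 652.5, 211 and 84.99.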
